A study of Mus musculus with 12 samples.

Results

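The insulin-like growth factor 1 gene (Igf1), its receptor (Igf1r) and the genes of the 7 IGF binding proteins (Igfbp1 to Igfbp7) were followed in RNA from whole kidneys of mouse embryos that carried mutations of Hox9, Hox10 and Hox11 genes. The genes were found by symbol, and all 9 were among the 36186 genes of the deposited count table. Kidneys were taken at E18.5 from animals of mixed background, and 12 libraries were made, 3 for each of 4 genotypes. Wild type is written Wt. AkCh embryos were homozygous mutant for Hoxa9,10,11 and heterozygous for Hoxc9,10,11, AhCk embryos were heterozygous for Hoxa9,10,11 and homozygous mutant for Hoxc9,10,11, and AkCk embryos are labelled homozygous mutant for Hoxa9,10,11 and Hoxc9,10,11. Libraries are named below by genotype and the replicate number of their label. No wild type embryo carried any mutant allele, and every mutant group carried mutant alleles at both clusters, so no comparison has a group with 1 cluster mutant alone.

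Several features limit these groups as models. The alleles are frameshift mutations present in every cell of the embryo, so kidney and other organs were mutant together. The label of AkCk cannot hold for Hoxa11: the study describes its sequenced double mutants as keeping 1 or both wild type Hoxa11 alleles, and without any such allele no kidney was there to be sampled. AkCk therefore stands here for kidneys mutant in Hoxa9, Hoxa10 and the Hoxc genes with wild type Hoxa11 present, and the labels do not tell which library had which Hoxa11 alleles. By label AkCh has no wild type Hoxa11 allele. AkCk vs AkCh thus differs at Hoxa11 as well as at the Hoxc genes, in opposite directions, and these differences cannot be told apart. RNA of Hoxa9, Hoxa10, Hoxa11, Hoxc9, Hoxc10 and Hoxc11 was measured in every library, between 0.894 and 164.5 CPM (counts scaled to a common library size after TMM normalization). Frameshift alleles can still be transcribed, and these levels do not check the genotype labels. By their labels the AhCk libraries came from a different sequencing run than the remaining 9, so for AhCk the genotype and the run cannot be told apart. By Xist and 4 Y-linked transcripts, AkCh_31, AkCh_33, AhCk_110, AkCk_27 and AkCk_29 were female and the other 7 libraries, including all 3 Wt, were male. The labels do not say whether embryos came from separate litters. The p-values set each group difference against the spread between these libraries, and whether that covers spread between litters is not known.

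Total counts ranged from 28616878 to 47067926 per library. AkCh_20 had the smallest total and stood apart: its counts differed from those of AkCh_31 and AkCh_33 by a chi-square of 257 and 278 per gene, whereas other replicate pairs gave 14.8 to 68.7. The fold changes of AkCh against Wt for the 9 genes are given with and without AkCh_20. AkCh_20 was the only male AkCh library. Without it the AkCh libraries were female and the Wt libraries male, so genotype and sex cannot be told apart there. In AkCk vs AkCh without it, a group of mixed sex stands against a female one. Markers of podocytes, proximal tubule and collecting duct were measured in every group, as the tissue label requires.

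IGF1 is a secreted growth factor that acts through the tyrosine kinase receptor IGF1R, which activates the PI3 kinase and AKT pathway through IRS adaptor proteins. IGF2, the main IGF of fetal life, uses the same receptor and is cleared by IGF2R. The binding proteins IGFBP1 to IGFBP6 bind IGFs with high affinity, hold them away from the receptor and carry them in serum and matrix, and IGFBP7 binds them weakly. Proteases, among them the pappalysins, cut certain binding proteins and free the ligand. In the developing kidney IGF signals support growth, and the transcripts of the system come from stroma, endothelium, glomeruli and epithelia in differing proportions.

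In AkCk kidneys Igf1 RNA was 3.07 times, Igfbp6 2.02 times and Igfbp4 1.35 times the wild type level, whereas Igfbp5 fell to 0.655 times that level. The other 5 genes did not pass the test. In all, 4 of the 9 genes passed an adjusted p of 0.05 in AkCk vs Wt (edgeR quasi-likelihood test, Benjamini-Hochberg adjustment over 15839 genes), 3 higher and 1 lower. Over all genes tested, 13.7% passed, 6.31% higher and 7.4% lower. The same 4 genes had groups that did not overlap, against 38% of all genes. The median log2 fold change of the 9 genes was 0.12, and that of all genes tested was -0.01. The count of 4 was 1 without Wt_37, 2 without Wt_55 or without AkCk_24, 3 without AkCk_27 and 5 without Wt_30. With Xist as a covariate over 12 libraries Igf1, Igfbp4 and Igfbp6 passed (adjusted p = 0.00555, 0.0208 and 0.020).

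In neither group heterozygous at 1 of the clusters did any of the 9 genes pass. For AkCh vs Wt, edgeR called 0 of 15789 genes, which is 0%, with 360 genes at an unadjusted p under 0.05 and 18 genes called by DESeq2. None of the 9 was under an unadjusted p of 0.05, none was called by DESeq2, and none had groups without overlap, against 8.33% of all genes. For AhCk vs Wt, 2.36% of 15902 genes passed and 0 of the 9, with Igf1r alone under an unadjusted p of 0.05. For AkCk vs AkCh, edgeR called 0 of 15764 genes, again 0%, with 1787 genes at an unadjusted p under 0.05 and 489 called by DESeq2. Of the 9 genes Igf1 alone was under an unadjusted p of 0.05 there, and DESeq2 called Igf1 alone.

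**Figure D1:**
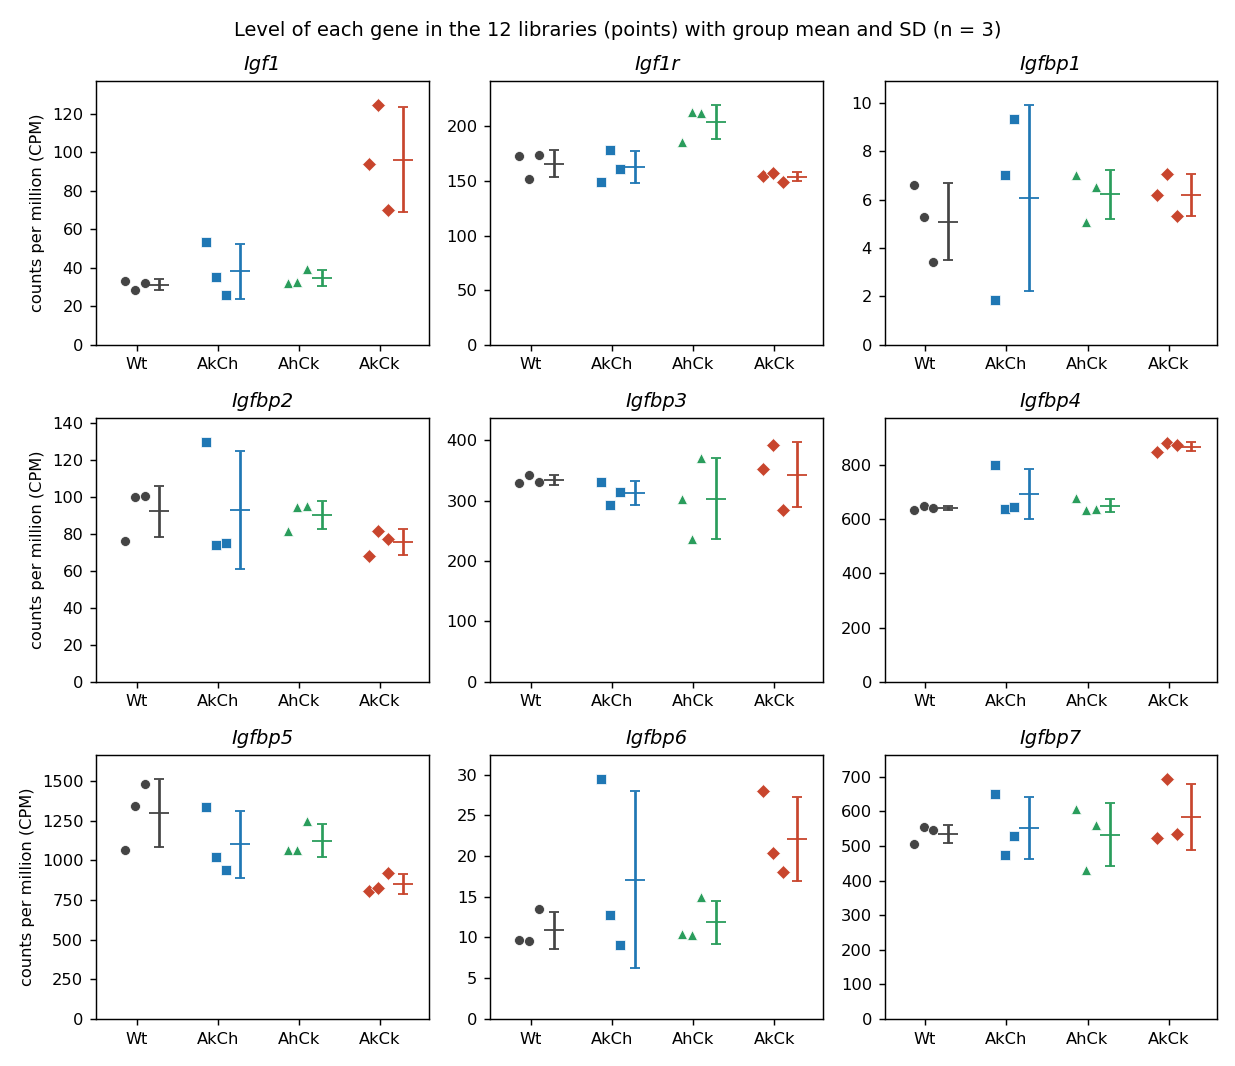
Level of each of the 9 genes in CPM (vertical axes, linear, from 0) in the 12 libraries, by genotype (horizontal axes), with the group mean and SD beside the points (n = 3). The 3 AkCk libraries lie above the 3 Wt libraries for Igf1, Igfbp4 and Igfbp6 and below them for Igfbp5, and AkCh_20 lies far from the other 2 AkCh libraries for Igfbp1, Igfbp2 and Igfbp6.

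The ligand changed most. Igf1 (Entrez 16000, chr10:87858265-87937047 of GRCm38.p6, plus strand) was at 33.3, 28.2 and 32.2 CPM in Wt_30, 37 and 55, and at 94.0, 125 and 69.9 CPM in AkCk_24, 27 and 29. The lowest AkCk library lay far above the highest Wt library. The mean was 96.2 ± 27.4 CPM in AkCk and 31.2 ± 2.66 CPM in Wt (SD, n = 3 each). The fitted log2 fold change was 1.62 (SE 0.194, adjusted p = 0.00425, edgeR quasi-likelihood test), a 3.07-fold higher level with a 95% interval of 1.17 to 2.07 on the log2 scale. In absolute size this change was larger than that of 98.2% of genes tested. It passed under each of 9 other settings and with each of the 6 libraries left out in turn.

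In the other mutants Igf1 stayed near the wild type level, apart from 1 library. AkCh_31 and AkCh_33 had 35.2 and 25.6 CPM, whereas AkCh_20 had 53.4 CPM. The AhCk_38, AhCk_110 and AhCk_115 libraries had 31.8, 32.7 and 39.5 CPM. The order of the group means was AkCk, AkCh, AhCk and Wt, and the last 3 overlapped in their libraries. Against Wt the log2 fold change was 0.29 in AkCh (95% interval -0.36 to 0.94, adjusted p = 1.00) and -0.04 without AkCh_20, and 0.16 in AhCk (95% interval -0.10 to 0.42, adjusted p = 0.442).

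Against AkCh, the AkCk libraries were again all higher in Igf1, and the call depended on the setting. By the account above these groups differ at Hoxa11 as well as at the Hoxc genes. AkCk vs AkCh gave a log2 fold change of 1.34 (SE 0.326, adjusted p = 0.249, edgeR). Without AkCh_20 it was 1.68 (SE 0.259) with an adjusted p of 0.0258. With AkCh_20 kept it passed in 3 of 9 other settings, DESeq2 (adjusted p = 0.00677), all 12 libraries in the fit (0.0253) and Xist as a covariate (0.0214), and over the 9 the adjusted p ran up to 0.287. Groups did not overlap in AkCk vs AkCh for 3 of the 9 genes, Igf1 and Igfbp4 higher and Igfbp5 lower, against 22.8% of all genes.

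The receptor gene did not pass the test in AkCk. Igf1r (Entrez 16001, chr7:67952257-68233668, plus strand) was at 173, 152 and 173 CPM in Wt_30, 37 and 55 and at 154, 158 and 149.5 CPM in AkCk_24, 27 and 29, with overlap between the groups. AkCk vs Wt gave a log2 fold change of -0.11 (SE 0.078, adjusted p = 0.345), with a 95% interval of -0.29 to 0.07. In AkCh the libraries spanned 148.8 to 178.5 CPM and the log2 fold change was -0.02 (95% interval -0.29 to 0.25), and 0.03 without AkCh_20.

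Igf1r was highest in AhCk, where all 3 libraries lay above all 3 Wt libraries. They had 186, 214 and 212.5 CPM, a mean of 204 ± 15.6 CPM against 166 ± 12.3 CPM in Wt (SD, n = 3 each). On the log2 scale the difference was 0.31 (SE 0.089, adjusted p = 0.117, edgeR), and with DESeq2 the adjusted p was 0.0418. Over its alternatives the adjusted p ran from 0.0418 to 0.374. Igf1r was the 1 gene of the 9 whose AhCk and Wt libraries did not overlap, against 26.6% of all genes. These AhCk libraries are also those of the other sequencing run, and no within-run comparison with Wt can be had.

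Igf1 and Igf1r are set side by side here per merged exon length, as RPKM (CPM divided by the exon length in kilobases). The ratio of Igf1 to Igf1r RPKM was 0.314 to 0.327 in the Wt libraries and 0.793 to 1.34 in the AkCk libraries. It was 0.608 in AkCh_20 and 0.260 to 0.335 in the other AkCh and AhCk libraries. The merged exons of Igf1 sum to 9904 bases, and which of its isoforms were present was not tested, so RPKM comparisons between genes rest on the merged length.

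**Figure D2:**
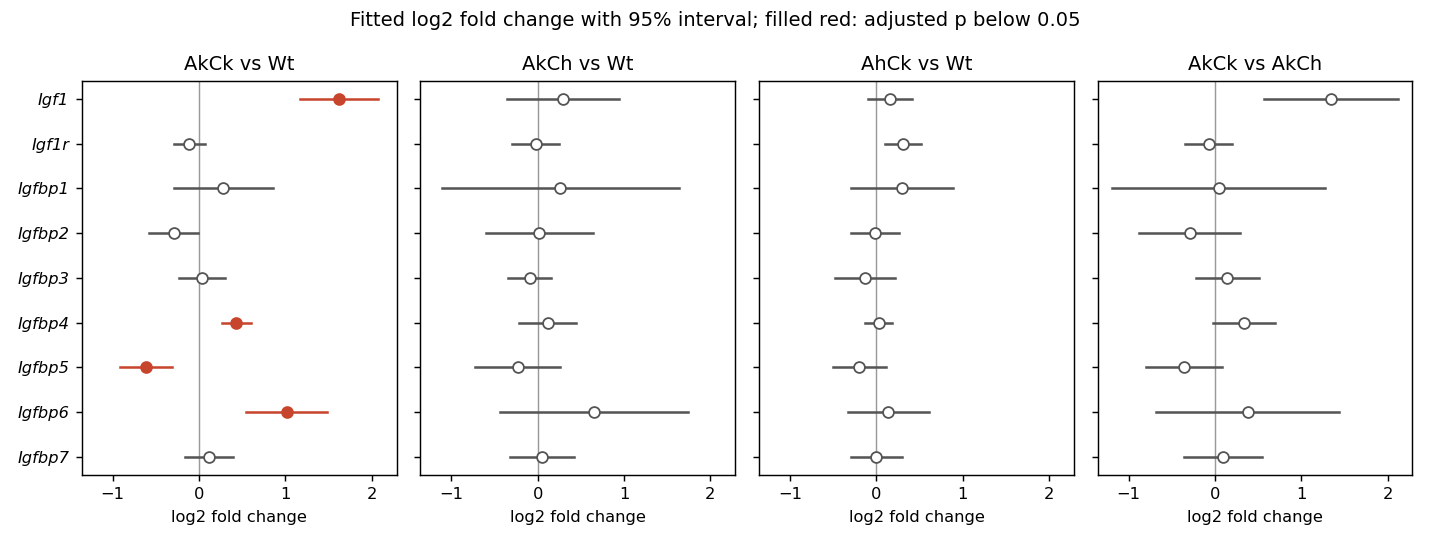
Fitted log2 fold changes (horizontal axes) of the 9 genes (vertical axis) with 95% intervals in the 4 comparisons, filled red where the adjusted p was below 0.05. Filled points occur in AkCk vs Wt alone, for Igf1 (1.62), Igfbp4 (0.43), Igfbp5 (-0.61) and Igfbp6 (1.02).

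Igfbp4 encodes a binding protein that inhibits IGF action and is cut by the pappalysin PAPP-A. Igfbp4 (Entrez 16010, chr11:99040005-99052655, plus strand) was at 633, 651 and 643 CPM in Wt_30, 37 and 55 and at 850.2, 881 and 875 CPM in AkCk_24, 27 and 29. Spread within both groups was small, with coefficients of variation of 1.36% in Wt and 1.89% in AkCk. Fitted, the log2 fold change was 0.43 (SE 0.071, adjusted p = 0.0102), a 1.35-fold higher level. The call was lost without Wt_37 (adjusted p = 0.0579), without Wt_55 (0.0573) and with the 9 libraries of the larger sequencing run in 1 fit (0.0799), while the log2 fold change stayed between 0.43 and 0.45.

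In AkCh_31 and AkCh_33 Igfbp4 was at 638 and 644 CPM, inside the Wt range, and AkCh_20 was at 801 CPM. In AhCk it was at 679, 636 and 637 CPM. Neither group passed against Wt, with log2 fold changes of 0.12 (95% interval -0.21 to 0.45) in AkCh, 0.03 (95% interval -0.13 to 0.19) in AhCk and -0.01 in AkCh without AkCh_20. AkCk vs AkCh gave 0.34 (SE 0.151, adjusted p = 0.474), and without AkCh_20 it gave 0.46 (SE 0.075, adjusted p = 0.0288).

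Igfbp6, whose product prefers IGF2 over IGF1, was a low-level gene that rose. Igfbp6 (Entrez 16012, chr15:102144186-102149512, plus strand) was at 9.64, 9.53 and 13.5 CPM in Wt_30, 37 and 55, from 364 to 546 counts. In AkCk_24, 27 and 29 it was at 27.9, 20.4 and 18.01 CPM, all above Wt. This was a log2 fold change of 1.02 (SE 0.203, adjusted p = 0.0202), or 2.02-fold. The call was lost without Wt_37 (adjusted p = 0.0842) and without AkCk_24 (0.0579). It was also lost with all 12 libraries in 1 fit (0.134) and with those 9 libraries (0.201). The log2 fold change was 0.94 without Wt_37, 0.82 without AkCk_24 and 1.02 in both larger fits. The study picked Igfbp6 for its own gene table from these libraries, so its direction here is no independent evidence.

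The highest Igfbp6 value of the series was not in an AkCk library. AkCh_20 had 29.4 CPM, whereas AkCh_31 and AkCh_33 had 12.7 and 9.09 CPM. The log2 fold change of AkCh against Wt was 0.65 (SE 0.449, adjusted p = 1.00) with that library and 0.00 without it. AhCk had 10.4, 10.3 and 14.9 CPM, and its fold change of 0.14 had a 95% interval of -0.33 to 0.61. AkCk vs AkCh gave 0.38 (SE 0.445, adjusted p = 0.743), and 1.04 (SE 0.230, adjusted p = 0.0572) without AkCh_20.

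Igfbp5 encodes the most conserved of the binding proteins, one that adheres to extracellular matrix, and it was the single gene of the 9 that fell. Igfbp5 (Entrez 16011, chr1:72858065-72874865, minus strand) was at 1062, 1342 and 1483 CPM in Wt_30, 37 and 55, and at 804, 825 and 921 CPM in AkCk_24, 27 and 29. The Wt libraries varied more than the AkCk libraries, and the groups did not overlap. AkCk was at 0.655 times the Wt level, a log2 fold change of -0.61 (SE 0.131, adjusted p = 0.0252).

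Of the 4 calls that of Igfbp5 was kept in the fewest settings. It was kept in 6 of 9 other settings and in 2 of 6 with a library left out. The adjusted p was 0.103 without Wt_37, 0.0904 without Wt_55, 0.0874 without AkCk_24 and 0.0674 without AkCk_27. The log2 fold change stayed between -0.73 and -0.50 throughout. With Xist as a covariate over 12 libraries it was -0.51 (adjusted p = 0.117).

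Igfbp5 was also lower than the Wt mean in both other mutant groups, without passing the test. The AkCh libraries 20, 31 and 33 had 1338, 1018 and 940.1 CPM, and the AhCk libraries had 1063, 1063 and 1247 CPM. Both groups overlapped Wt. The log2 fold changes were -0.23 (95% interval -0.72 to 0.26) and -0.19 (95% interval -0.50 to 0.12). Without AkCh_20 that of AkCh was -0.41 (SE 0.146, adjusted p = 0.431), and AkCk vs AkCh went from -0.36 (adjusted p = 0.523) to -0.18 (adjusted p = 0.314). The order of the means was Wt, AhCk, AkCh and AkCk.

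**Figure D3:**
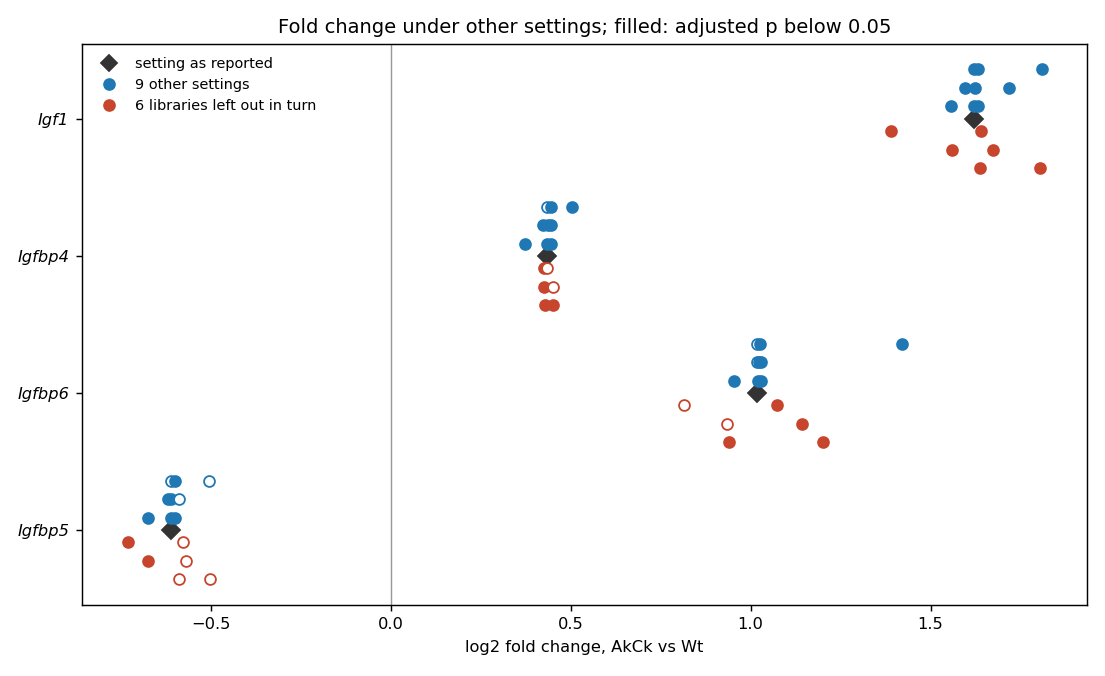
Log2 fold change of AkCk vs Wt (horizontal axis) for the 4 genes that passed, as reported (diamonds), under 9 other settings (blue) and with 6 libraries left out in turn (red), filled where the adjusted p was below 0.05. Igf1 points run from 1.39 to 1.81 and are all filled, and no point of any of the 4 genes lies across 0.

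Igfbp2 lies beside Igfbp5 on chromosome 1, with 5590 bases between the genes, and encodes a binding protein typical of fetal tissues. Igfbp2 (Entrez 16008, chr1:72824480-72852474, plus strand) was at 76.4, 99.9 and 100.3 CPM in Wt_30, 37 and 55 and at 67.9, 81.5 and 77.04 CPM in AkCk_24, 27 and 29. The groups overlapped through Wt_30. The log2 fold change was -0.29 (SE 0.122, unadjusted p = 0.0445, adjusted p = 0.144, edgeR), and without Wt_30 it was -0.41 with an adjusted p of 0.0246. AkCh_31 and AkCh_33 had 74.2 and 74.8 CPM, whereas AkCh_20 had 130 CPM, the highest of the 12 libraries. AkCh against Wt gave 0.02 on the log2 scale with AkCh_20 and -0.31 (SE 0.125, adjusted p = 0.431) without it. AhCk lay between 81.6 and 95.1 CPM.

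Igfbp1 and Igfbp3 form the other adjacent pair, on chromosome 11, with 3539 bases between them. Igfbp1, whose product is made mostly by liver and is induced by fasting, was the lowest of the binding proteins. Igfbp1 (Entrez 16006, chr11:7197787-7202546, plus strand) lay between 3.42 and 6.60 CPM in Wt and between 5.33 and 7.07 CPM in AkCk. AkCh_20 had 48 counts of Igfbp1, or 1.84 CPM, the lowest of the series, and AkCh_33 had 9.35 CPM, the highest. The log2 fold changes against Wt were 0.28 in AkCk (95% interval -0.29 to 0.86), 0.26 in AkCh (95% interval -1.11 to 1.63) and 0.30 in AhCk (95% interval -0.30 to 0.89). Without AkCh_20 that of AkCh was 0.68 (SE 0.281, adjusted p = 0.431).

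Igfbp3, the main carrier of IGFs in serum, did not pass in any comparison. Igfbp3 (Entrez 16009, chr11:7206086-7215498, minus strand) was at 329 to 343 CPM in Wt, 292 to 331 CPM in AkCh, 237 to 371 CPM in AhCk and 285 to 392 CPM in AkCk. The spread was widest in AhCk, from the female library AhCk_110 at the bottom to AhCk_115 at the top. The log2 fold changes against Wt were 0.03 in AkCk (95% interval -0.23 to 0.30), -0.09 in AkCh (-0.15 without AkCh_20) and -0.13 in AhCk.

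Igfbp7, a matrix protein of vessels and stroma, was the most abundant per length and also did not pass. Igfbp7 (Entrez 29817, chr5:77349240-77408045, minus strand) was at 506 to 554 CPM in Wt, 474 to 650 CPM in AkCh, 431 to 606 CPM in AhCk and 524 to 693 CPM in AkCk. AkCk_27 alone lay above the range of Wt and AkCh, since AkCk_24 and 29 were at 524 and 533 CPM. The log2 fold change of AkCk against Wt was 0.12 (SE 0.120, 95% interval -0.16 to 0.40, adjusted p = 0.510). AkCh and AhCk gave 0.05 and 0.00, and AkCh without AkCh_20 gave -0.10 (SE 0.086).

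Set against each other per merged exon length, the binding proteins spanned 2 orders of magnitude. Mean RPKM in Wt was 443 for Igfbp7, 216 for Igfbp5, 145 for Igfbp4, 107 for Igfbp3, 49.9 for Igfbp2, 9.80 for Igfbp6 and 3.34 for Igfbp1. Igf1r was at 9.88 RPKM, level with Igfbp6 within their SDs of 0.733 and 2.04, and Igf1 was at 3.15 RPKM, level with Igfbp1. In AkCk the mean of Igfbp4 (197 RPKM) lay above that of Igfbp5 (141.5 RPKM), the reverse of the order in Wt. The RPKM ratio of Igfbp4 to Igfbp5 was 0.590 to 0.811 in Wt, 0.813 to 0.932 in AkCh, 0.695 to 0.868 in AhCk and 1.29 to 1.45 in AkCk.

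The total of the binding protein transcripts overlapped between Wt and AkCk while its makeup differed. Summed RPKM of the 7 genes was 898 to 1018 in Wt and 938 to 1102 in AkCk. The share of Igfbp4 in that sum was 14.3% to 17.6% in the 9 libraries outside AkCk and 18.1% to 21% in AkCk. The share of Igfbp5 was 17.5% to 24.2% outside AkCk and 12.5% to 16.2% in AkCk. Igfbp7 held 43.6% to 52% across all 12 libraries. Igfbp6 held 1.66% to 2.68% in AkCk, 2.31% in AkCh_20 and 0.853% to 1.34% in the others. These shares repeat the same reads as the CPM values above and are a description.

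Igf1 RNA was small beside its binding proteins in every group. Its RPKM was 0.284% to 0.375% of the summed Igfbp RPKM in Wt, 0.288% to 0.471% in AkCh and 0.326% to 0.405% in AhCk. In AkCk it was 0.747% to 1.14%, above every other library.

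**Figure D4:**
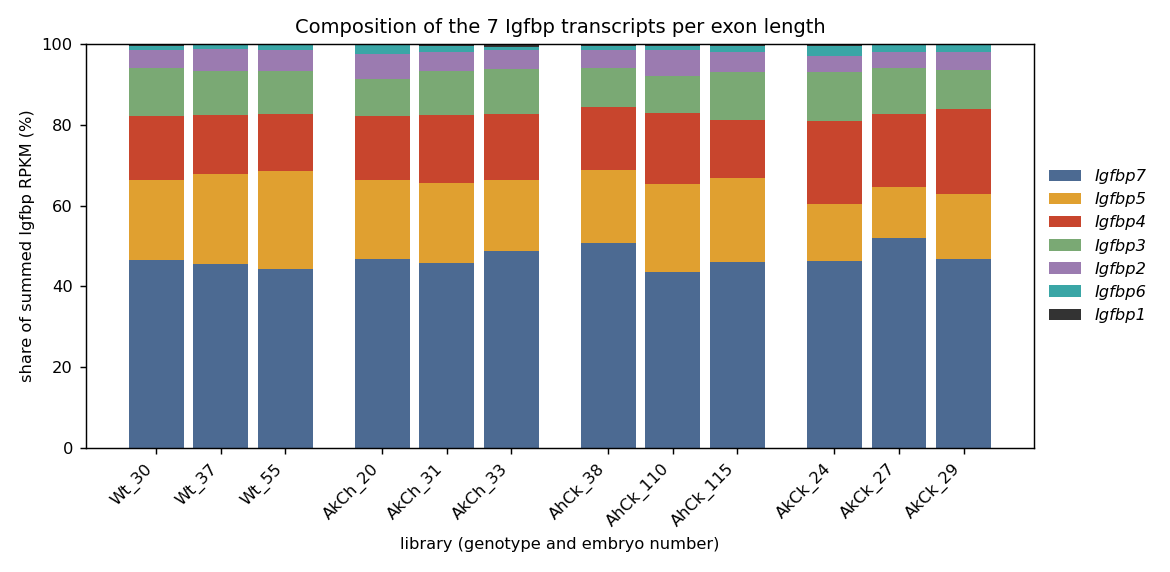
Share of each of the 7 Igfbp genes in their summed RPKM (vertical axis, percent) in each of the 12 libraries (horizontal axis, genotype and replicate number). Igfbp7 takes 43.6% to 52% everywhere, and in the 3 AkCk libraries Igfbp4 takes more (18.1% to 21%) and Igfbp5 less (12.5% to 16.2%) than in the other 9.

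Marker transcripts of cell types moved with the AkCk genotype too. In a list of 9 stroma and fibroblast markers 6 rose in AkCk vs Wt and none fell, and their summed level was 8187 to 9970 CPM in AkCk and 3134 to 3354 CPM in Wt. Col1a1 and Col3a1 made up most of that sum, and the other 7 markers summed to 1269 to 1649 CPM in AkCk and 793 to 904 CPM in Wt. Meis1 (log2 fold change -0.14), Tcf21 (-0.06) and Pdgfrb (0.27), all stromal markers, did not pass. In 8 markers of cap mesenchyme, the nephron progenitors, 4 fell, with sums of 68.9 to 180 CPM and 217 to 315 CPM. Of the 5 macrophage markers found 3 rose (90.5 to 128 CPM against 57.3 to 63.6 CPM). Of 7 podocyte markers 5 rose (1575 to 1950 CPM against 1266 to 1351 CPM), and of 6 markers of collecting duct and ureteric bud 3 fell (629 to 777 CPM against 774 to 854 CPM). Those 3 were Ret (log2 fold change -1.77) and Wnt11 (-1.07), both of ureteric bud tips, and Gata3 (-0.65), whereas Aqp2 of mature collecting duct gave -0.10 and did not pass. None of 8 endothelial, 6 proximal tubule or 5 erythroid markers passed. Over all genes tested 6.31% passed higher and 7.4% lower, and whether the share of any list differs was not tested. Col1a1, Lum, Cited1 and Wnt11 are among the markers that the study's own gene table, drawn from these libraries, also lists. For markers in that table the direction here is no independent evidence.

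Tissue from outside the kidney was also looked for. In 9 liver markers 3 rose in AkCk vs Wt, with sums of 74.9 to 152.5 CPM against 52.1 to 91.6 CPM, and Alb was at 3.02 to 16.0 CPM in AkCk and 0.671 to 1.09 CPM in Wt. Of 8 skeletal muscle markers 1 rose (13.7 to 26.7 CPM against 8.03 to 14.9 CPM), and of 4 adrenal cortex markers tested none did. Beside these counts, 6.31% of all genes tested passed higher, and whether the share of any list differs was not tested. No listed marker was at 0 in all Wt or all AkCk libraries. In AkCh_20, AkCh_31 and AhCk_115 Alb was at 21.2, 16.5 and 24.7 CPM. The part of any of these cell types in the Igf1, Igfbp4, Igfbp5 and Igfbp6 differences was not tested. In bulk kidney fewer cells of a type and less RNA per cell cannot be told apart.

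In the other mutants the counts of markers stand beside fewer calls over all genes, 0% in AkCh vs Wt and 2.36% in AhCk vs Wt, so 0 calls in AkCh say nothing of the markers. Stroma marker sums were 3418 to 4411 CPM in AkCh and 3950 to 5314 CPM in AhCk, where 2 of 9 passed, Col3a1 (log2 fold change 0.53, adjusted p = 0.0375, edgeR) and Lum (1.08, adjusted p = 0.0196). Of the 6 collecting duct and ureteric bud markers Ret fell in AhCk (-0.52, adjusted p = 0.0435). Macrophage sums were 53.7 to 60.7 CPM in AkCh and 61.2 to 82.6 CPM in AhCk. Cap mesenchyme sums were 485 CPM in AkCh_20, 234 and 209 CPM in AkCh_31 and AkCh_33, and 187 to 247 CPM in AhCk. AkCh_20 also had the lowest podocyte sum of the 12 libraries, 798 CPM, and the lowest proximal tubule sum, 407.5 CPM. For liver markers the median log2 fold change against Wt was 1.87 in AkCh (1.22 without AkCh_20) and 0.86 in AhCk, beside 1.47 in AkCk. For erythroid markers it was -0.12 in AkCh (-0.29 without AkCh_20), 1.24 in AhCk and 0.76 in AkCk, and AhCk_115 had the highest sum, 5849 CPM.

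Of 41 other genes of the IGF pathway, 39 were tested, and Igfbpl1 and Irs4 were too low. In AkCk vs Wt 6 passed, all higher, which is 15.4% of those tested against 13.7% of all genes. The median log2 fold change of the 39 was 0.09, beside -0.01 over all genes. In AkCh vs Wt, AhCk vs Wt and AkCk vs AkCh none of the 39 passed, with medians of 0.05, 0.16 and 0.14. Without AkCh_20 none passed in AkCh vs Wt (median 0.09), and in AkCk vs AkCh 2 passed higher and 2 lower (median 0.05), where 687 of 15986 genes passed.

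Among ligands and receptors, Igf2 and Igf2r passed. Igf2 was at 1442, 1507 and 1418 CPM in Wt_30, 37 and 55 and at 2153, 2071 and 2090 CPM in AkCk_24, 27 and 29. Its log2 fold change was 0.53 (SE 0.076, adjusted p = 0.00711), and in AhCk it was 0.32 (SE 0.092, adjusted p = 0.120). Igf2r, which takes IGF2 to lysosomes, rose by 0.31 (SE 0.074, adjusted p = 0.0339). The insulin receptor gene Insr gave 0.15 (SE 0.131, adjusted p = 0.440).

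Among the proteases that cut binding proteins, Pappa2 and Htra1 rose and Pappa did not pass. Pappa2, a pappalysin that cuts IGFBP3 and IGFBP5, was at 85.2, 66.0 and 41.9 CPM in Wt_30, 37 and 55 and at 169, 198 and 108 CPM in AkCk_24, 27 and 29. Its log2 fold change was 1.29 (SE 0.288, adjusted p = 0.0278). The study's own gene table, drawn from these libraries, also lists Pappa2 as higher, so its direction here is no independent evidence. Htra1, a secreted serine protease, went from 12.8 ± 0.892 to 27.1 ± 6.76 CPM (SD, n = 3 each), a log2 fold change of 1.08 (SE 0.175, adjusted p = 0.0101). Pappa, which cuts IGFBP4, was at 22.0 ± 3.36 and 22.1 ± 2.59 CPM, with a log2 fold change of 0.01 (SE 0.139). The pappalysin inhibitors Stc1 and Stc2 gave -0.19 (SE 0.134) and -0.09 (SE 0.155), and neither passed.

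Downstream of the receptor, 2 of the 19 adaptor and kinase genes tested passed, beside 13.7% of all genes. Whether these shares differ was not tested. Pik3r1, a regulatory subunit of PI3 kinase, rose by 0.40 (SE 0.087, adjusted p = 0.0255), and the kinase gene Akt2 rose by 0.32 (SE 0.062, adjusted p = 0.0181). The receptor substrates Irs1 and Irs2 gave -0.06 (SE 0.068) and -0.08 (SE 0.126), and Grb10, an adaptor that restrains the receptor, gave -0.11 (SE 0.092). In AhCk, Irs2 gave 0.48 (SE 0.115, adjusted p = 0.0823) and Akt2 0.31 (SE 0.066, adjusted p = 0.0631), neither past the threshold.

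**Figure D5:**
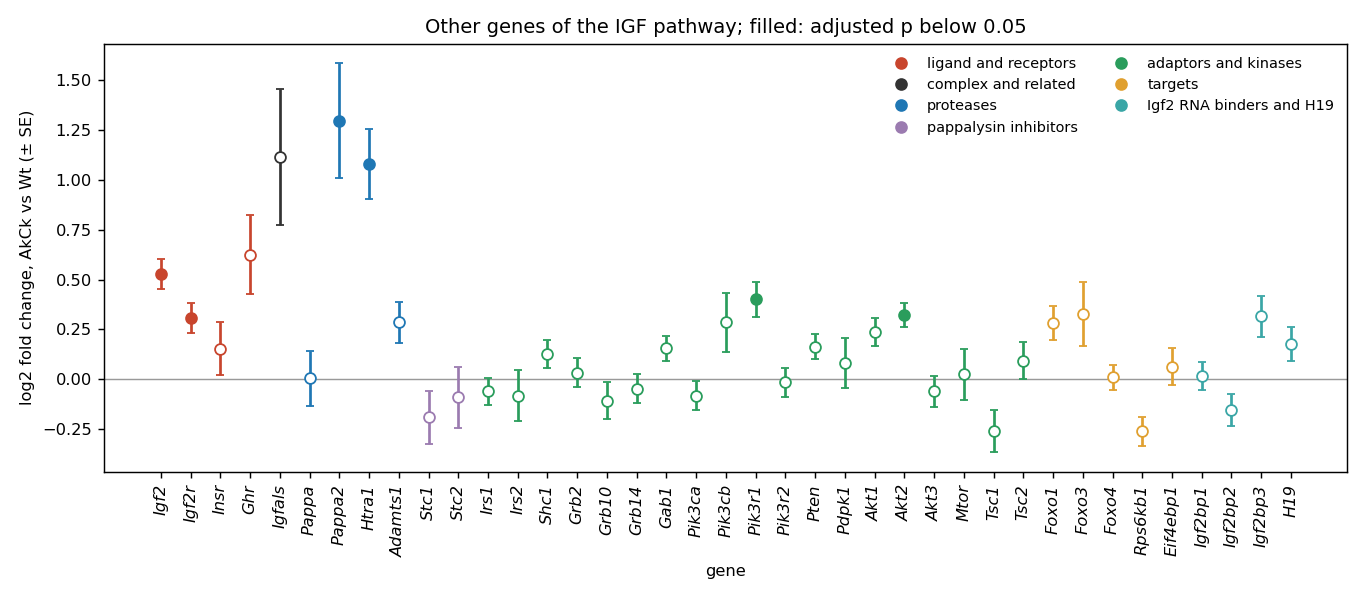
Log2 fold change of AkCk vs Wt with its SE (vertical axis) for the 39 other genes of the IGF pathway that were tested (horizontal axis), coloured by role and filled where the adjusted p was below 0.05. The 6 filled points, Igf2, Igf2r, Pappa2, Htra1, Pik3r1 and Akt2, all lie above 0.

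In the genome, Igfbp6 lies on chromosome 15, where its start is 776.9 kb from Hoxc13, at the near end of the cluster that holds the mutated Hoxc genes. Of the 27 tested genes starting within 500 kb of Igfbp6 none passed in AkCk vs Wt, and their median log2 fold change was -0.04. Its nearest tested neighbours, Spryd3 and Soat2, gave 0.05 (SE 0.088) and -0.61 (SE 0.520). Igfbp4 lies 2674.3 kb from Hoxb1, of a cluster that was not mutated, and of its 20 tested neighbours 2 rose and 3 fell. Of 6 tested neighbours of Igf1 1 fell. Of the 3 tested neighbours of Igfbp5, Igfbp2 among them, none passed. Beside these counts stand 13.7% of all genes tested that passed in AkCk vs Wt, 6.31% higher and 7.4% lower.

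Promoter sequence is shown for the 3 binding protein genes that changed, so that the letters before the RefSeq start site can be seen. Each window is taken from RefSeq on GRCm38.p6, runs from base -180 to base -21 before the RefSeq start site, and overlaps no exon of the GENCODE annotation. For Igfbp5 and Igfbp6 that site is the start of the gene as placed above. For Igfbp4 it lies 1239 bases downstream of the gene start given above, from which the distance to Hoxb1 was taken, so its window lies inside the annotated gene. That of Igf1 overlaps an annotated exon and is not printed. The windows are chr11:99041064-99041223 on the plus strand for Igfbp4, chr1:72874886-72875045 on the minus strand for Igfbp5 and chr15:102144006-102144165 on the plus strand for Igfbp6. They are written 5′ to 3′ on the gene's strand, and capitals mark a match to TATAAA on either strand.
Igfbp4: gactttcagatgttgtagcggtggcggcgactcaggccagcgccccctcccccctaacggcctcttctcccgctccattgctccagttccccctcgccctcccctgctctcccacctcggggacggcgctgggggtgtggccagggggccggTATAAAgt
Igfbp5: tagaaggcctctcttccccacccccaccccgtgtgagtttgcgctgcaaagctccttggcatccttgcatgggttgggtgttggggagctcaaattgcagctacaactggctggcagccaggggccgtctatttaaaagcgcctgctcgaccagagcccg
Igfbp6: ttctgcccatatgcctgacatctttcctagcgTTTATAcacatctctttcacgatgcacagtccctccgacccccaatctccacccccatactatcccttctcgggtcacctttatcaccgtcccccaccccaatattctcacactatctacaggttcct

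The 10 RefSeq promoters of the 9 genes, each 300 bases from 250 before to 50 after the start, were searched on both strands for TATAAA, the TATA box core, and for TTTATGG and TTTACGA, cores of the type that Hox9 to Hox11 proteins bind. Read on the other strand TATAAA begins with the same letters as TTTATGG, and no match was counted for both. TATAAA was found in Igfbp4 from base -28 on the gene's strand and in Igfbp6 from base -148 on the other strand, and 13.6% of 32851 promoters hold it. Neither of the other motifs was found in the 10, and 2.75% and 0.597% of all promoters hold them. This says only that those letters are not in these windows. The windows also differ in composition, with 11, 6 and 5 CpG and 68.1%, 59.4% and 50.6% GC in Igfbp4, Igfbp5 and Igfbp6.

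For each of the 9 genes the 2 genes with the most similar pattern were found among 12070 others, by Pearson's r of log2 CPM over the 12 libraries. These were picked as the highest of many, the libraries share genotypes and AkCh_20, and the values are a description. For Igf1 they were Gsn, the actin-severing gelsolin, and Ogn, the matrix proteoglycan osteoglycin, each with r = 0.97, and rho was 0.77 and 0.82. Without the 3 AkCk libraries r was 0.77 and 0.87. For Igfbp4 they were Pcolce, which enhances procollagen processing, with r = 0.96 and 0.85 without AkCk, and Tmem115, a Golgi protein, with r = 0.96 and 0.90.

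For Igfbp6 the nearest patterns were those of Pf4, a chemokine of platelets and some macrophages (r = 0.98), and Amigo2, an adhesion protein (r = 0.98). Both stayed at 0.97 or above without the AkCk libraries and at 0.96 or above without AkCh_20. For Igfbp5 they were 2410006H16Rik and Efnb2, the ligand ephrin-B2, each with r = 0.96. Igfbp1 was nearest to Rbl2 and Pld1 (r = 0.98 each), and without AkCh_20 and Wt_55, the 2 libraries farthest from its median, r was 0.92 and 0.89.

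Among the genes that did not pass in AkCk vs Wt, Igf1r was nearest to Tet3, an enzyme that oxidizes methylcytosine (r = 0.96), and Mkl2, a transcriptional coactivator (r = 0.95), and both values were 0.88 without AhCk_110 and AhCk_115. Igfbp2 was nearest to Zfp362 and Prr14 (r = 0.97 each, and 0.93 and 0.94 without AkCh_20). The weakest likeness was that of Igfbp3 with Slfn2 and Plekhf1 (r = 0.87 and 0.84) and of Igfbp7, of which Aldoa, a glycolytic enzyme, is given (r = 0.91).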

How the data were processed

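RNA of E18.5 whole kidneys was sequenced by the authors with Illumina TruSeq as paired-end reads, aligned to mm10 (submitters' processing notes), and reads with several positions were removed. The authors deposited expected counts per gene, of which 81.8% of values above 0 are not exactly whole numbers (no tolerance), and normalized values on the log2 scale with a median of 0 per gene. Whether counting used strand is not given in the sources used here, so Igf1 and its antisense transcript cannot be told apart.

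Expected counts were rounded and tested with the quasi-likelihood test of edgeR 4.0.16 (R 4.3.3), with TMM normalization, filterByExpr defaults (minimum count 10, total 15), the 6 libraries of each comparison in the fit and Benjamini-Hochberg adjustment over all genes tested, at 0.05. All 9 genes passed the filter. RPKM used merged exons of GENCODE M21, and positions are those of RefSeq GRCm38.p6 (32912 genes matched). Alternatives were RLE factors, library size alone, DESeq2 1.42.0, no filter, all 12 libraries or the 9 of the larger run in the fit, Xist as a covariate, limma 3.58.1 on the deposited log2 values as they are (planned on the value plus 1), a GC correction in 20 bins, and leaving out each library. Plots used matplotlib 3.10.9.

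The 9 genes and all lists were chosen with earlier results of these data known. Genes named are the 9, pathway genes past the threshold with 10 fixed ones, the 2 most alike by r with a mean of at least 5 CPM, nearest tested neighbours, and markers. The lowest value of the 9 genes was 48 counts, far above the floor of 3, which covers counting error only. Protein sequences were not used here, and some genes that this rule names are not reported here.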

Additional observations from a re-analysis of the deposited data

How the results depend on the processing

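No paired analysis was made because no 2 genotypes share a replicate number, and the labels do not say what these numbers stand for. Of 531 values recomputed for the 9 genes, 510 kept their side of the threshold, 14 lost the call and 7 gained one. No value past the threshold changed sign, whereas 42 recomputed values had the opposite sign, all for genes and comparisons that did not pass as reported. Counts of genes moved more. For AkCk vs Wt, where 2171 genes passed, the count was 3312 with DESeq2, 1190 with all 12 libraries, 690 with the 9 libraries of the larger sequencing run, 984 with Xist, 1196 with limma, and 535 (without Wt_37) to 3386 (without Wt_30) with a library left out, and the 4 calls among the 9 genes became 1 with the 9 libraries and 1 to 5 with a library left out. For AkCh vs Wt it was 18 with DESeq2, 2 with all 12, 1 with limma and 0 to 8 (without AkCh_20) with a library left out. For AhCk vs Wt, where 376 passed, it was 1284, 149 and 104 in that order, 124 with Xist, 119 with the GC correction, and 60 (without Wt_37) to 549 (without Wt_30) with a library left out, and DESeq2 called 1 of the 9 genes. For AkCk vs AkCh it was 489 with DESeq2, 1 with no filter, 540 with all 12, 181 with the 9, 647 with Xist and 0 to 687 (without AkCh_20) with a library left out, and among the 9 genes 1 was called with DESeq2, 1 with all 12, 1 with Xist and 0 to 2 with a library left out. The cause of these shifts was not tested. With 3 libraries a group, a left-out library leaves fewer degrees of freedom, and an exact permutation test of a single gene could not go below 0.1.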
